A study of Arabidopsis thaliana with 12 samples.

Results

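The genes described here are the 44 named genes of an Arabidopsis expression array whose deposited intensity was above 0 in at least 4 of 6 water samples and above 0 in at most 3 of 6 proline samples. They were chosen among 692 probes annotated to exactly 1 gene, out of 3439 probes in all, and each stands for a different locus. All plants were Arabidopsis thaliana wild type (WT), ecotype Wassilevskija. The proline group had received 100 mM proline for 48 h, a dose meant to bring the proline in the cells to a toxic level, and the water group is described in the labels as having had no treatment. Total RNA of 6 samples per group was measured. The labels name no tissue, age or growth medium and do not tell whether samples were grown separately, so a p-value speaks only to the variation among these 12 samples, part of which may be technical.

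The deposited numbers are relative intensities on a linear scale with no unit, from 0 to 61.4, and 8.43% of them are exactly 0. Consecutively numbered samples (1 and 2, 3 and 4, 5 and 6) are called sets 1, 2 and 3, because for 12 of 12 samples the most similar sample of the same group was its partner in the set. Partners differed by a median absolute log2 value of 0.173 to 0.326, and samples of a group from different sets by 0.537 to 1.26, over the 2338 probes above 0 in all 12 samples. The median of the values above 0 was 0.0325 to 0.0335 in set 3 in water and 0.0758 to 0.0812 in the other water samples, so intensities are best compared within a set. No 2 columns held identical values.

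Proline is made from glutamate when plants meet drought or salt and is broken down again to glutamate in mitochondria. Supplied in excess it is toxic to Arabidopsis, and chloroplasts and mitochondria are both known as places where its metabolism meets the redox state of the cell. An array reports how brightly a probe lights up. How the zeros in this table arose is not known, so a value of 0 is given here only as listed and does not show that a transcript was absent.

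The 44 genes were mostly dim, and most of them were not silenced throughout the proline group. In the 6 proline samples 161 of their 264 values were 0, against 32 of 264 in water. In bulk RNA, fewer cells of a type and less RNA per cell cannot be told apart. Only AT1G29070 and SRX were listed at 0 in all 6 proline samples. A further 7 genes were above 0 in 1 proline sample, 9 in 2 and 26 in 3. In water 22 were above 0 in all 6 samples, 12 in 5 and 10 in 4. The description "dropping to zero" thus holds throughout the group for 2 genes, and the other 42 are called here by the rule that chose them.

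The rule reads both groups, so the difference in zeros between them is how these genes were found and is not a result. By the same rule 6.08% of all 3439 probes (209) were members, 6.36% of the named probes (44) and 6.01% of the 2747 probes without a single gene (165), so the named genes met it about as often as the array as a whole. The reverse pattern, above 0 in at least 4 proline and at most 3 water samples, was met by 4 named probes (0.578%), by 37 of all probes (1.08%) and by 33 of those without a single gene (1.2%). With 1 sample left out, the limits for its group became at least 4 or at most 2 of the remaining samples. Each count could thus only fall. The count of 44 was 29 without proline sample 3 and 28 without proline sample 4, and between 31 and 39 without any other single sample. The reverse count of 4 was 2 without any single proline sample and 3 or 4 without any single water sample, and over all probes the 37 became 20 without proline sample 1 or 3 and 20 to 33 over all samples left out in turn. With an equal number of undetected probes on every array, the named counts were 30 and 36.

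**Figure D1:**
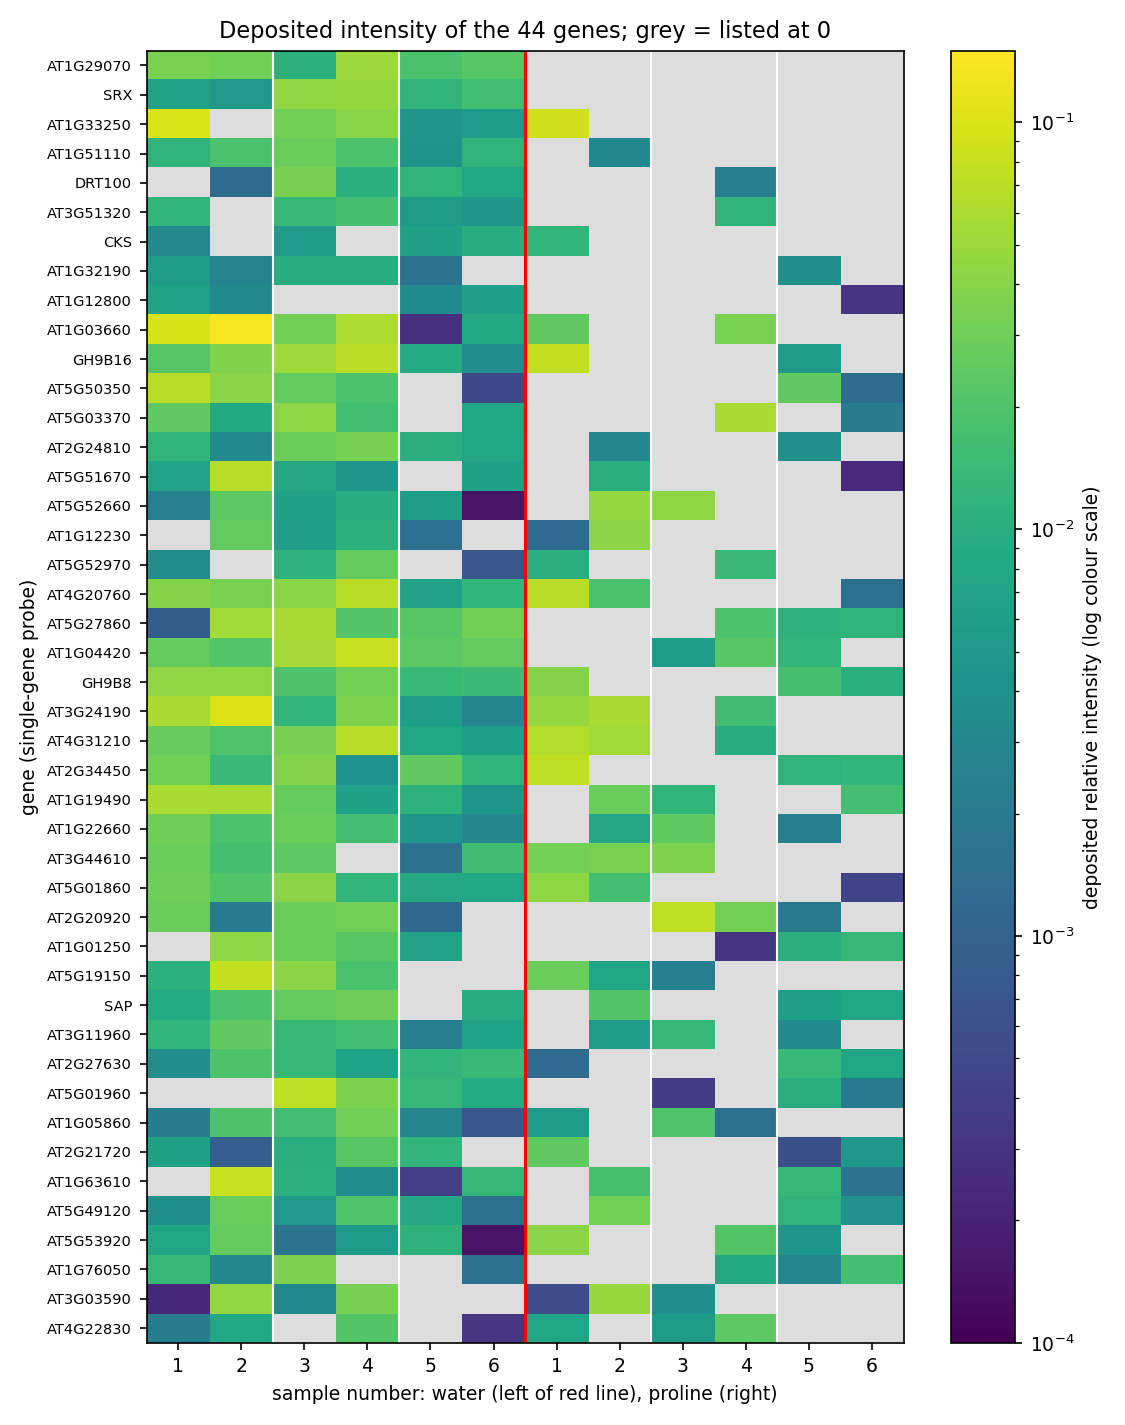
Deposited relative intensity (logarithmic colour scale, no unit) of the 44 genes in rows, by sample number in columns, water left and proline right of the red line, with white lines between sets and grey for values of 0. Rows are ordered by the number of proline samples above 0 and then by the median in water. Only the top 2 rows are grey in all 6 proline columns, and 26 rows keep 3 coloured proline cells.

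Of the plastid proteins, AT1G29070, which encodes protein L34 of the large subunit of the plastid ribosome, gave the clearest separation. Its intensities in water samples 1 to 6 were 0.0341, 0.0317, 0.0111, 0.0495, 0.0181 and 0.0227, a mean of 0.0279 ± 0.0136 (SD, n = 6), and all 6 proline samples were listed at 0. The groups did not overlap, and water varied by more within set 2 than within sets 1 and 3. SRX (AT1G31170) encodes sulfiredoxin, the chloroplast enzyme that restores over-oxidised peroxiredoxins. Its water values were 0.00682, 0.00520, 0.0463, 0.0468, 0.0119 and 0.0170, a mean of 0.0223 ± 0.0192 (SD, n = 6), with 0 in all 6 proline samples. Partners agreed closely in water and the sets did not, since set 2 lay far above set 1.

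AT1G51110 belongs to the fibrillins, proteins of plastid lipid bodies and membranes. Its water values were 0.0116, 0.0181, 0.0283, 0.0188, 0.00445 and 0.0116, and in proline only sample 2 was above 0, at 0.00302. That value lay below every water sample, so AT1G51110 is the third and last of the 44 genes whose groups did not overlap. The rule favours such separation, and its share over all probes was not counted, so this is a description only. Of all 3439 probes, 4 were above 0 in all 6 water samples and in no proline sample, AT1G29070 and SRX among them. AT3G24190, an ABC1-type kinase homologue of plastids, showed another picture. Its water values were 0.0596, 0.103, 0.0122, 0.0364, 0.00598 and 0.00289, and its proline values 0.0475, 0.0599, 0, 0.0159, 0 and 0. In set 1 the proline samples were thus well inside the water range, and its zeros fell in sample 3 and in set 3, where the water values were lowest. Also counted among the plastid proteins was AT1G12800, an S1-domain RNA-binding protein, with 4 water values of 0.00329 to 0.00668 and 1 proline value of 0.000302. AT5G52970, the last of the 6, is a protein of the thylakoid lumen and had 4 water and 2 proline values above 0. For these 6 genes together 32 of 36 water values and 7 of 36 proline values were above 0, and 4 of the 6 were above 0 in at most 1 proline sample. None of the 6 reached a proline value above its highest water value. The class was put together after the values were known, and the other classes may hold plastid proteins too. These counts thus describe the 6 genes and not plastid proteins in general.

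**Figure D2:**
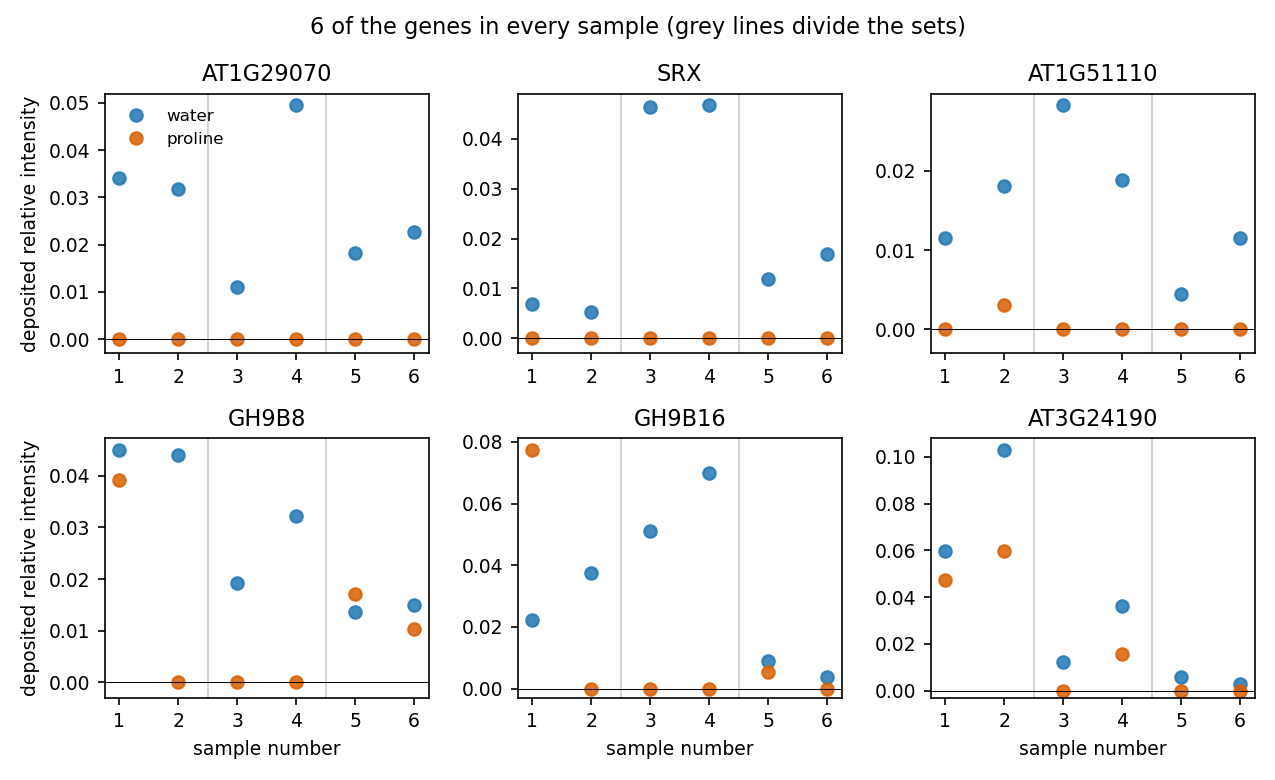
Deposited relative intensity (linear axis, no unit) of AT1G29070, SRX, AT1G51110, GH9B8, GH9B16 and AT3G24190 in each sample by number, water in blue and proline in orange, with grey lines between sets. AT1G29070 and SRX lie on 0 in all 6 proline samples, whereas GH9B16 is highest of all in proline sample 1, at 0.0774.

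Most relatives of these plastid genes on the array were above 0 in every sample. Of 41 plastid ribosomal proteins listed, 6 were measured under a single gene name and AT1G29070 was the only one to meet the rule. AT3G13120, AT1G64510, AT3G54210 and AT4G01310 were above 0 in all 12 samples, with median intensities of 0.193, 0.0595, 0.184 and 0.102 in water and 0.120, 0.0324, 0.137 and 0.0547 in proline. AT5G65220 was above 0 in 2 water samples and 1 proline sample, so it was at 0 in most samples of both groups and did not meet the rule.

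Among 14 fibrillins 5 were measured, and AT1G51110 was again the only one to meet the rule. AT2G46910 had medians of 0.128 in water and 0.0785 in proline, AT2G35490 of 0.0867 and 0.0876, AT5G19940 of 0.0591 and 0.00849, and AT5G09820 of 0.0161 and 0.0486, each with 12 values above 0. AT5G09820 was thus higher in proline by its median, although its water values in set 1 (0.0761 and 0.0637) were near its proline values there (0.0539 and 0.0724). Of 24 listed genes of thiol peroxidases, thioredoxins and their reductases, 3 were measured, namely SRX, NTRC, the chloroplast thioredoxin reductase that reduces 2-Cys peroxiredoxins, and AT3G52960, a chloroplast type II peroxiredoxin. NTRC had medians of 0.0517 and 0.125 in water and proline and AT3G52960 of 0.0916 and 0.0672, and neither was ever at 0. No gene of proline synthesis, breakdown or transport (0 of 10) and no root (0 of 7) or seed marker (0 of 7) was measured under a single name. Of 14 markers of green tissue only LHB1B2, a light-harvesting protein, was measured, at medians of 9.51 and 7.45 in water and proline.

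Cell wall and glycan genes supplied 4 members. GH9B8 and GH9B16 both belong to glycosyl hydrolase family 9, the plant endoglucanases that cut cellulose-like chains. GH9B8 had water values of 0.0451, 0.0440, 0.0193, 0.0322, 0.0136 and 0.0149, and proline values of 0.0391, 0, 0, 0, 0.0171 and 0.0104. Proline samples 5 and 6 lay close to their water counterparts, so its zeros came from sample 2 and from set 2. GH9B16 had water values of 0.0224, 0.0376, 0.0511, 0.0700, 0.00893 and 0.00371, and proline values of 0.0774, 0, 0, 0, 0.00536 and 0. Both genes were thus at 0 in proline samples 2, 3 and 4, and for GH9B16 proline sample 1 was brighter than every water sample. AT1G33250, of a family related to fringe glycosyltransferases, was at 0 in 5 proline samples, but proline sample 1 (0.0881) nearly matched its brightest water sample (0.0991). CKS (AT1G53000), the enzyme that activates the sugar KDO for pectin synthesis, had 4 water values of 0.00314 to 0.00962 and a single proline value, 0.0123, which exceeded them all.

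Of 6 metabolic enzymes, AT4G20760, a Rossmann-fold NAD(P)-binding protein, had the highest water median. Its water values were 0.0388, 0.0341, 0.0412, 0.0676, 0.00673 and 0.0127, and its proline values 0.0685, 0.0183, 0, 0, 0 and 0.00146. Proline sample 1 stood level with the top of water, while both samples of set 2 were at 0. AT1G04420, an aldo-keto reductase, had water values of 0.0263, 0.0216, 0.0562, 0.0808, 0.0241 and 0.0260, and proline values of 0, 0, 0.00577, 0.0227, 0.0119 and 0. Each proline value above 0 was below the water value of the same number. AT5G03370, of the acylphosphatase family, and AT1G12230, a transaldolase, were above 0 in 2 proline samples, AT5G19150, which repairs damaged NAD(P)H, in 3 and AT1G32190, an alpha/beta hydrolase, in 1. AT5G03370 and AT1G12230 reached 0.0589 and 0.0421 in proline, above their highest water values of 0.0429 and 0.0263. Over the class 30 of 36 water values and 14 of 36 proline values were above 0.

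RNA handling and translation contributed 5 genes. They were AT3G51320, a pentatricopeptide repeat protein of the kind that binds organelle transcripts, AT1G22660, which adds the CCA end to tRNAs, AT1G76050, a pseudouridine synthase, AT5G53920, related to methyltransferases of ribosomal protein L11, and AT3G11960, related to a subunit of the cleavage and polyadenylation factor. AT3G51320 had 5 water values of 0.00483 to 0.0174 and was above 0 in proline sample 4 only, at 0.0120. The other 4 genes kept 3 proline values each, and 27 of 30 water values and 13 of 30 proline values of the class were above 0. For AT1G22660 and AT3G11960 the zeros fell on proline samples 1, 4 and 6.

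DNA and chromatin proteins were 4, all above 0 in 3 proline samples. AT4G31210, a type IA DNA topoisomerase, had water values of 0.0277, 0.0199, 0.0334, 0.0690, 0.00783 and 0.00615, and proline values of 0.0651, 0.0544, 0, 0.00960, 0 and 0. In set 1 it was brighter in proline than in water, and it was at 0 in proline in set 3. The others were AT2G34450, an HMG-box protein, AT3G03590, a SWIB-domain protein, and AT1G05860, related to an INO80 chromatin remodelling subunit. AT2G34450 reached 0.0744 in proline sample 1, above its highest water value of 0.0385.

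Of 4 transcription factors, AT5G52660, a MYB-related protein of the REVEILLE type, was above 0 in proline samples 2 and 3 only, at 0.0474 and 0.0432, both above its highest water value of 0.0236. AT1G19490 of the bZIP family, AT1G01250 of the ERF family and AT5G01860, a C2H2 zinc finger protein, kept 3 proline values each. AT5G01860 had proline values of 0.0428 and 0.0165 in set 1 and lay between 0 and 0.000434 in the other 4 proline samples.

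Signalling, protein turnover and defence made up 7 genes. DRT100, a leucine-rich repeat protein first known for DNA damage tolerance, had 5 water values of 0.00132 to 0.0335 and 1 proline value, 0.00232. AT2G24810, of the thaumatin family of pathogenesis-related proteins, was above 0 in all 6 water samples, at 0.00328 to 0.0337, and in proline samples 2 and 5, at 0.00299 and 0.00392. SAP, the F-box protein STERILE APETALA of flower development, AT3G44610, an AGC-type protein kinase, AT5G01960, a RING finger protein, AT2G27630, related to ubiquitin hydrolases, and AT5G49120, of the FLZ zinc finger family, kept 3 proline values each. AT3G44610 had 0.0329, 0.0342 and 0.0367 in proline samples 1 to 3, each above its highest water value of 0.0292, and 0 in the rest. Such a profile meets the rule without being lower in those 3 samples.

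The remaining 8 genes are given no role here. AT1G03660 had the highest water median of all 44, with values of 0.0968, 0.134, 0.0318, 0.0610, 0.000268 and 0.00857, and proline values of 0.0249, 0, 0, 0.0346, 0 and 0. AT5G27860 had water values of 0.000867, 0.0543, 0.0575, 0.0214, 0.0222 and 0.0315, and proline values of 0, 0, 0, 0.0187, 0.0113 and 0.0117. AT5G50350 had water values of 0.0675, 0.0416, 0.0259, 0.0189, 0 and 0.000488, and proline values of 0, 0, 0, 0, 0.0248 and 0.00139, so it was at 0 after proline in sets 1 and 2 but brighter in proline than in water in set 3. AT5G51670 was above 0 in 2 proline samples, and AT2G21720, AT1G63610, AT2G20920 and AT4G22830 in 3.

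Zeros after proline fell unevenly on the replicate sets. Both proline partners were at 0 for 14 genes in set 1, 21 in set 2 and 18 in set 3. In water the same counts were 1, 1 and 2. The rule asks for at least 3 zeros per gene in proline and allows at most 2 in water, so this contrast largely follows from the choice. The whole array also had the most zeros in set 2 of proline, at 421 and 424, against 352 to 369 in the other proline samples. AT1G29070 and SRX were at 0 in both partners of all 3 sets. In 9 genes both partners were at 0 in 2 sets (AT1G33250, AT1G51110, DRT100, AT3G51320, CKS, AT1G32190, AT1G12800, AT5G50350 and AT1G12230), in 29 genes in 1 set, and in 4 genes (AT1G19490, AT1G22660, AT3G11960 and AT5G53920) in none. Partners differed in 22 genes in set 1, in 19 in set 2 and in 14 in set 3, where 1 was at 0 and the other was not.

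Values above 0 in proline were not always low. In 15 of the 44 genes the highest proline value exceeded the highest water value, and in 29 it did not. Examples are AT2G20920, at 0.0736 in proline sample 3 against at most 0.0328 in water, and AT5G53920, at 0.0422 in proline sample 1 against at most 0.0268. These maxima were compared across sets without normalization. The array median of values above 0 was higher in proline in set 1 (0.0963 and 0.0957 against 0.0759 and 0.0812 in water). In set 2 it was lower in proline (0.0678 and 0.0698 against 0.0780 and 0.0758), and in set 3 the groups were close (0.0345 and 0.0335 against 0.0325 and 0.0335).

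The members lay at the dim end of the array, with the reservation that probes differ in how well they bind. Each probe was ranked within its array among the values above 0, from 0 for the dimmest to 100 for the brightest. The median rank over the water samples in which the probe was above 0 was taken, so samples at 0 did not lower it. It was 12.6 for the median member (range 1.76 for AT4G22830 to 39.5 for AT1G04420), against 46.3 for the other named probes above 0 in at least 4 water samples. When the 653 named probes of that kind were split into 5 equal bins by this rank, 35 of 131 in the dimmest bin were members (26.7%), 7 of 130 in the next (5.38%), 2 of 131 in the middle (1.53%) and none in the 2 brightest. Probes without a single gene gave 24.2%, 6.15%, 1.35%, 0% and 0%. The named genes thus met the rule at much the same rate as other probes of like brightness, and all 4 reverse genes lay in the dimmest bin by their rank in proline (4 of 123, 3.25%).

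**Figure D3:**
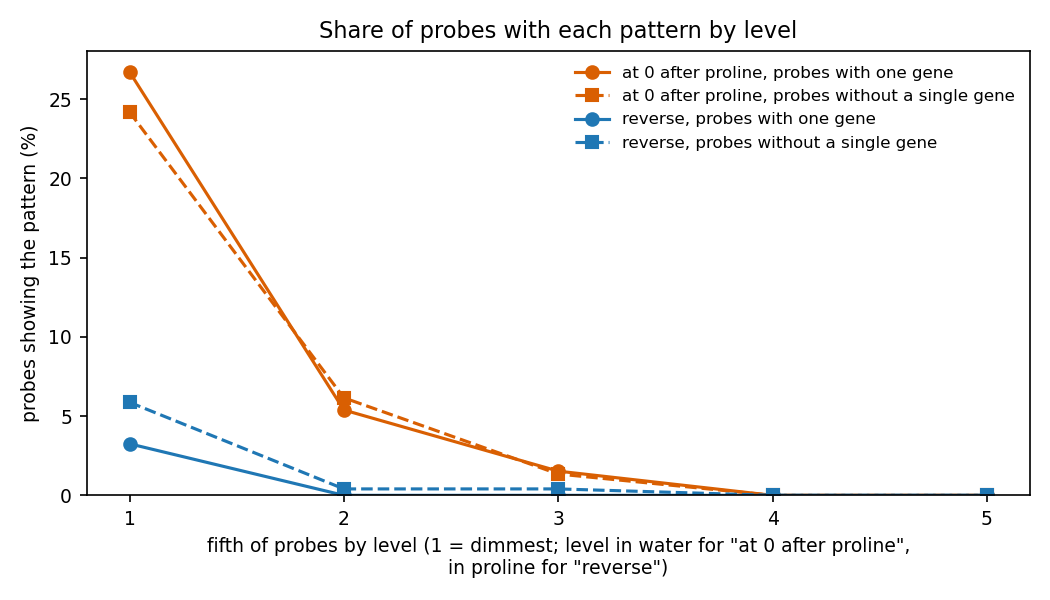
Percentage of probes meeting the rule (orange) or the reverse pattern (blue) in 5 equal bins of probes by within-array rank, from the dimmest at 1 to the brightest at 5, for probes with 1 gene (circles, solid) and without a single gene (squares, dashed). The orange lines start at 26.7% and 24.2% in the dimmest bin and reach 0% in the fourth, and the blue lines start at 3.25% and 5.87%.

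Just inside the limit, the 26 members with 3 proline values above 0 had water medians of 0.00125 to 0.0364, with 0.0147 in the middle. Just outside, the 47 named probes with at least 4 water values and exactly 4 proline values above 0 had water medians of 0.00114 to 0.107, with 0.0166 in the middle. A further 14 named probes had 3 water values and at most 3 proline values above 0, and the middle of their water medians was 0.00113. On the proline side the limit thus divides probes of similar water level. On the water side the medians cannot be compared in this way. With only 3 water values above 0, the median is the mean of a 0 and the lowest of these 3 values. That median is thus low by the choice itself and does not tell whether the 14 probes were dimmer.

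The 4 named genes with the reverse pattern were dim too. AT5G65360, which encodes histone H3.1 and whose probe may also read near-identical copies of that gene, was above 0 in 2 water samples, at 0.00405 and 0.0132, and in 5 proline samples, at 0.00478 to 0.0176. AT1G67820, a protein phosphatase 2C, was above 0 in water sample 3 only, at 0.0150, and in proline samples 1, 2, 5 and 6, at 0.0248, 0.0392, 0.00203 and 0.00395. AT5G19370, with rhodanese and prolyl isomerase domains, was above 0 in 2 water samples, at 0.00311 and 0.00810, and in proline samples 1 to 4, at 0.0544, 0.00647, 0.00405 and 0.0230. AT1G49940 was above 0 in 3 water and 4 proline samples, at no more than 0.0118 in either group. None of the 4 was listed at 0 in all samples of a group.

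More zeros in proline were seen in probes that cannot be among the 44. Of the 2747 probes without a single gene, 183, 157, 118, 116, 171 and 176 were at 0 in water samples 1 to 6 and 269, 291, 322, 329, 277 and 282 in proline samples 1 to 6. The means were 153.5 ± 29.5 and 295.0 ± 24.8 (SD, n = 6 each), a difference of 141.5, and every proline sample had more zeros than every water sample. A two-sided exact permutation test with 6 samples a group gave p = 0.00216, the smallest that 6 against 6 allows. With the mean of each set taken as 1 sample, the exact permutation test gave p = 0.1, the smallest that 3 against 3 allows. The 44 genes had 2 to 9 zeros in the water samples and 24 to 32 in the proline samples, with the most in proline sample 3, and the number of zeros on the array was also highest in set 2 of proline. The part of the array-wide zeros in the zeros of single genes was not tested.

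The balance between the pattern and its reverse depended on what counted as not detected. In a setting chosen after seeing the data, the lowest 424 probes on every array were counted as not detected, a number set by the array with the most zeros. Then 30 named probes met the rule and 36 the reverse, and over all probes these counts were 145 and 142. This setting gives each array the same number of undetected probes, which evens out the 2 directions by its construction. Of the 44 genes 25 still met the rule under it and none turned to the reverse. Across this setting, the 2 other floors, the limits of 5 and 2 samples, and the sets as units, 10 genes met the rule each time. These were AT1G29070, SRX, AT1G51110, GH9B16, AT1G33250, AT3G51320, AT2G24810, AT5G03370, AT1G03660 and AT5G50350, and AT1G12230, AT1G76050, AT4G22830, AT5G52970 and CKS met it under none of these 5. All 5 settings read the same values that chose the genes. How many of the other probes met the rule under all 5 was not counted, so the 10 are a description only.

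**Figure D4:**
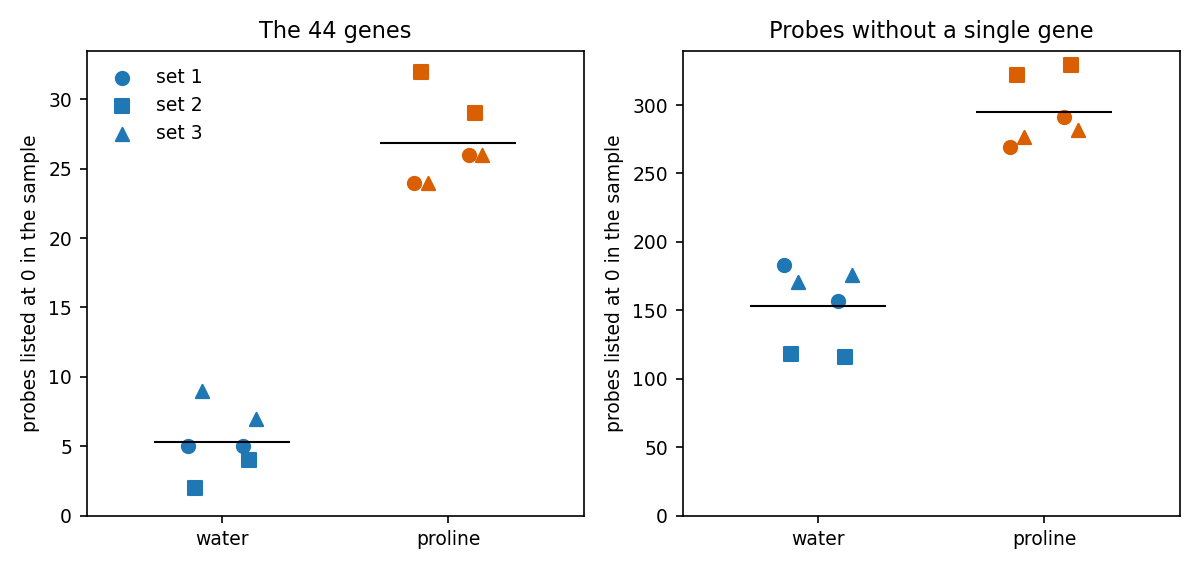
Number of probes listed at 0 in each sample, for the 44 genes (left, chosen by these zeros) and for the 2747 probes without a single gene (right), with water in blue, proline in orange, the sets as circles, squares and triangles, and lines at the group means. On the right the water samples lie at 116 to 183 and the proline samples at 269 to 329.

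A choice made in part of the samples can be read in samples that took no part in it. The probes chosen this way were not the same as the 44, of which 34, 29 and 34 were among them without sets 1, 2 and 3. Without set 1, 1 of the 44 (AT1G76050) was chosen for the reverse pattern instead. Proline arrays had more zeros throughout, and the part of this in the counts below was not tested. Named probes were chosen in 2 sets, above 0 in at least 3 of 4 water and at most 2 of 4 proline samples, and read in the third set. Of 64 probes chosen without set 1, 24 had fewer proline than water values above 0 in set 1, 33 had equal numbers and 7 had more. Without set 2 these counts were 22, 17 and 4 of 43 probes, and without set 3 they were 19, 32 and 9 of 60. Fewer proline values were thus found in 37.5%, 51.2% and 31.7% of the chosen probes, against 11.1%, 13.1% and 7.85% of the named probes not chosen in either direction. Over all probes, named or not, the shares were 30.5%, 49.5% and 34.9% of the chosen against 9.56%, 12.2% and 7.14% of the others, so the named genes are not set apart by these counts. The probes not chosen were not matched for brightness, and 447 of the 692 named probes were above 0 in all 12 samples. More proline values were also commoner in the chosen probes, at 10.9%, 9.30% and 15.0% against 3.05%, 2.65% and 2.72%. Probes chosen for the reverse pattern numbered 6, 7 and 8, and in the set left out 1, 0 and 1 of them had more proline values and 3, 3 and 2 had fewer. These are counts without a test, since probes on the same arrays are not independent.

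The places of the 44 genes in the genome are given without the share over all named probes, so they are a description only. No 2 of them lay within 5 protein-coding genes of each other, and 16 were on chromosome 1, 6 on chromosome 2, 6 on chromosome 3, 4 on chromosome 4 and 12 on chromosome 5.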

How the data were processed

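The authors deposited a single table of relative intensity values for 3439 probes and 12 samples. Scanner, background correction, scaling and genome build were not given in the sources used here. The linear scale was read from the values. How a 0 arose is therefore unknown, as is the signal over background. Precision is limited by the number of arrays. Probes were named through the annotation of the array platform, whose names may be outdated: 692 had 1 gene, 870 several and 1877 none listed. Of the 692, 690 were updated by gene identifier to the TAIR10.1 gene table, 1 more by locus name (AT1G03660) and 1 kept the array's name. Probes with several genes were not named.

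Members were counted by the rule on the values as deposited, with no normalization, in Python 3.11.15 with pandas 2.3.3. Ranks were taken within each array. Counts of zeros per sample were compared with an exact permutation test (scipy 1.17.1). Counting by the rule was tested on simulated data. Every member is named, with values by sample for those above 0 in all 6 water and at most 1 proline sample and for the 10 with the highest water medians. Members, gene lists and tests were chosen with earlier results of these data known, and the classes after the values had been seen. Deviations of same-numbered samples from their group means correlated at 0.143 to 0.272, and each of the 6 numbers matched best with itself, so the numbers were taken as pairs. Figures used matplotlib 3.10.9.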

Additional observations from a re-analysis of the deposited data

Results flagged for a closer look

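In 29 of 98 groups of 6 values, a sample stood apart from the rest by more than 95% of chance gaps would, and chance gives about 1 in 20. Of these, 23 were proline groups of the 44 genes, where the rule leaves at most 3 values above 0, so a lone bright sample is built into the choice, and none was a count of zeros per sample. Proline sample 1 stood apart for AT1G33250 (0.0881), GH9B16 (0.0774), AT2G34450 (0.0744), AT4G20760 (0.0685), AT5G19150 (0.0282), AT2G21720 (0.0254) and CKS (0.0123). Proline sample 2 did so for AT3G03590 (0.0491), AT1G12230 (0.0421), AT5G49120 (0.0322), SAP (0.0204), AT5G51670 (0.00993) and AT1G51110 (0.00302). Proline sample 3 did so for AT1G22660 (0.0243) and AT1G05860 (0.0201), and proline sample 4 for AT5G03370 (0.0589), AT4G22830 (0.0243), AT3G51320 (0.0120) and DRT100 (0.00232). Proline sample 5 did so for AT5G50350 (0.0248), AT5G01960 (0.00999) and AT1G32190 (0.00386), and proline sample 6 for AT1G12800 (0.000302).

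Among water groups, sample 2 stood apart for AT1G63610 (0.0818, next 0.0129) and AT5G51670 (0.0687, next 0.00817), sample 3 for DRT100 (0.0335, next 0.0121) and sample 4 for AT4G22830 (0.0214, next 0.00771). For the reverse genes AT1G67820 and AT5G65360, water sample 3 stood apart at 0.0150 and 0.0132. The reverse pattern leaves at most 3 water values above 0, so a lone bright water sample is built into that choice as well.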

How the results depend on the processing

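Limits of 5 and 2 samples left 14 named probes with the rule and 1 with its reverse (53 and 10 of all probes), and limits of 6 and 0 left 2 and 0 (4 and 0). With values under 0.005 counted as 0, the rule was met by 65 named and 314 of all probes, and the reverse by 10 and 49. With values under the 5th percentile of each array counted as 0, the rule was met by 51 named and 270 of all probes, and the reverse by 16 and 69. Of the 44 genes only 33 and 28 still met the rule under these 2 floors, so many of the named probes counted there were others. With sets as units 23 of all probes met the reverse. The equal share of undetected probes, chosen after seeing the data, gave 36 named and 142 of all probes with the reverse. Leaving out single samples, or whole sets with limits of 3 and 2 of 4 (also chosen after seeing the data), gave 28 to 64 named and 135 to 284 of all probes with the rule, and 2 to 8 named and 20 to 56 of all probes with the reverse. In the group that lost a single sample the limits were 4 and 2 of 5, so those counts could only fall. The rule gave more probes than its reverse under each of these settings except, for named probes, the equal share. The difference of 141.5 zeros per sample did not pass with set means (141.5, exact permutation p = 0.1). That is the smallest p that 3 against 3 allows, so this setting could not pass. With same-numbered samples as pairs in a replicate block the difference was 141.5 (exact permutation p = 0.0312, the smallest that 6 pairs allow), which changed no call. The difference was 134.0 to 147.4 without single samples. The causes were not tested.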
